A study of Mus musculus with 12 samples.

Results

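MHC class I presentation was followed gene by gene in cells sorted from mouse cutaneous squamous cell carcinomas. The gene set held 46 of the 53801 genes counted: H2-K1, H2-K2, H2-D1, H2-Bl and every H2-Q, H2-T and H2-M gene by name, the light chain B2m, the peptide loading genes, the immunoproteasome genes, the transactivator Nlrc5, and the class I-like genes Cd1d1 and Mr1. Names ending in -ps were left out. H2-M10.5-ps1 stayed in because its name ends otherwise, and it had no counts. Of the 46 genes, 35 lie on chromosome 17 and 11 on other chromosomes (GRCm38, GENCODE M21 gene spans).

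RNA was sequenced from 12 libraries of FVB mice. Macrophages gated as CD45+ F4/80+ from the tumors were sorted by surface Fc epsilon receptor I alpha (FceRIa) into FceRIa-positive and FceRIa-negative cells, 3 libraries each. Tumor basal cells, gated as Rosa-YFP+ CD49f+ CD29+, were sorted by an mScarlet reporter of TGF-beta signaling into reporter-positive and reporter-negative cells, also 3 libraries each. The first question is whether class I genes differ between FceRIa-positive and FceRIa-negative macrophages, the second whether they differ between TGF-beta-responding and non-responding carcinoma cells, and the third how the cell types compare. The labels give no age, sex or driver mutation, and do not say whether libraries came from separate animals or pools.

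Class I molecules show peptides from inside the cell to CD8 T cells. Cytosolic proteins are cut by the proteasome, whose interferon-induced form carries the subunits Psmb8, Psmb9 and Psmb10. The Tap1-Tap2 transporter carries the peptides into the endoplasmic reticulum, where tapasin (Tapbp) and the chaperones Calr and Pdia3 help load them onto a heavy chain paired with beta-2 microglobulin (B2m). In mice H2-K1 and H2-D1 encode classical heavy chains, while the H2-Q, H2-T and H2-M families encode mostly non-classical ones with narrower expression. Nlrc5 activates transcription of many of these genes. Class I genes are known to fall in carcinomas that escape T cells, and TGF-beta is known as a suppressor of immune responses in tumors.

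Library totals lay between 33704786 and 40041144 counts in macrophages and between 27951632 and 35088897 in carcinoma cells. A floor of 3 counts corresponded to 0.0698 to 0.107 CPM, and floors and counting intervals cover counting error only. CPM, the count per library size, is given on sizes scaled by the TMM method within each cell type, except where a joint scaling is named. Of the 46 genes, 17 overlap a gene on the opposite strand. On the same strand the span of Tapbp overlaps Zbtb22 by 3422 bases, H2-T10 overlaps Gm7030 by 5590 and Nlrc5 overlaps Mir7072 by 60. A strand setting would not separate these. H2-K2, H2-Q3, H2-Q5, H2-Bl, H2-T10 and H2-M10.5-ps1 are annotated as pseudogenes or polymorphic pseudogenes. Of the 46 genes, 34 passed the low-count filter in macrophages and 30 in carcinoma cells. The 12 that passed in neither were H2-M1, H2-M9, H2-M11, the 6 H2-M10 genes and H2-M10.5-ps1, H2-Q3 and H2-T3, none with more than 14 counts over 6 libraries. H2-M1, H2-M9 and the H2-M10 family are known from the vomeronasal organ, and H2-T3 encodes the thymus leukemia antigen of gut epithelium. Defining markers were as labelled, in that Krt14 lay between 32256 and 41160 CPM in carcinoma cells and Ptprc (CD45) between 0.681 and 2.56 CPM, while in macrophages Ptprc lay between 1035 and 1402 CPM and Adgre1 (F4/80) between 487 and 970 CPM. Krt14, a basal keratinocyte keratin, was also at 97.2 to 1706 CPM in macrophages. Fcer1a mRNA did not exceed 0.191 CPM in any macrophage library, so the transcript does not check the FceRIa sort, which was made on surface protein.

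Samples with the same number deviated together within each cell type, so each difference is given from a fit without the number and from one that blocks on it. The reporter-positive carcinoma libraries numbered 1 and 3 were nearly the same library by their counts (chi-square per degree of freedom 1.65, against 94.8 and 98.9 for the other 2 pairs), and so were the reporter-negative ones (3.13, against 46.8 and 49.3). Carcinoma values therefore hold close to 2 independent samples per group. The macrophage libraries numbered 2 stood apart in several heavy chain genes, with no counts of H2-Q1 and H2-Q2 in either sort, although every library is labelled FVB. The headers of these libraries in the deposited counts end in New, unlike those numbered 1 and 3, and what New marks is not stated.

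Promoters are printed for the genes on which the results turn, from RefSeq on GRCm38.p6, each 300 bases long (250 before and 50 after the annotated start), 5′ to 3′ on the gene's strand. H2-K1, H2-D1 and B2m make up the classical molecule, Tap1, Psmb8 and H2-M5 differed between the macrophage sorts, and H2-M2 showed the largest difference between cell types. H2-M5 and Psmb8 were added to the printed set after their values were seen. Capitals mark an 11-base kappa B palindrome (the first capitals of H2-K1), the interferon response letters TTTCACTT or GAAA repeated after a gap of 2 bases, and the STAT letters TTCNNNGAA, each searched on both strands.
H2-K1 (chr17:34000298-34000597, minus strand): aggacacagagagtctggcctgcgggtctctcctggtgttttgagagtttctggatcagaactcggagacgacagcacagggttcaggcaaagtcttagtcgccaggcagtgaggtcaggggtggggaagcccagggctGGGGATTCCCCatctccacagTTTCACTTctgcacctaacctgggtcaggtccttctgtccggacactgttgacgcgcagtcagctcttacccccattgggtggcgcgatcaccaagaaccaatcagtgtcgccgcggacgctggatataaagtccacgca
H2-D1 (chr17:35262844-35263143, plus strand): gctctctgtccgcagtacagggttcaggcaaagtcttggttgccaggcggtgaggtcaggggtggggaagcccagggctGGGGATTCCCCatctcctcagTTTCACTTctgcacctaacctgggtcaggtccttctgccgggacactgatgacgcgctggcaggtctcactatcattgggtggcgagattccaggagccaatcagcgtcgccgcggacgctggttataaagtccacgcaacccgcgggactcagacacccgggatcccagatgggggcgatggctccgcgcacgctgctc
B2m (chr2:122147437-122147736, plus strand): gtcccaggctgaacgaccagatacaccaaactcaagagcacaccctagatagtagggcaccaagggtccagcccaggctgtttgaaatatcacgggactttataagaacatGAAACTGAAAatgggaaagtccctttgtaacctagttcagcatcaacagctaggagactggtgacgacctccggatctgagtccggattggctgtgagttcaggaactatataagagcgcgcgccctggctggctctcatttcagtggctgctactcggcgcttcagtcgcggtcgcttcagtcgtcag
Tap1 (chr17:34187306-34187605, plus strand): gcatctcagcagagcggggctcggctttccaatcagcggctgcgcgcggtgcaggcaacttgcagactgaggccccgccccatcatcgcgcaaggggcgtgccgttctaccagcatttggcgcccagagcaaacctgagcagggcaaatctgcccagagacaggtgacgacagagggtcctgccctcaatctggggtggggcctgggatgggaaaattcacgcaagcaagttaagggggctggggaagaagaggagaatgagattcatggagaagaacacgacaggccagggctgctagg
Psmb8 (chr17:34197945-34198244, plus strand): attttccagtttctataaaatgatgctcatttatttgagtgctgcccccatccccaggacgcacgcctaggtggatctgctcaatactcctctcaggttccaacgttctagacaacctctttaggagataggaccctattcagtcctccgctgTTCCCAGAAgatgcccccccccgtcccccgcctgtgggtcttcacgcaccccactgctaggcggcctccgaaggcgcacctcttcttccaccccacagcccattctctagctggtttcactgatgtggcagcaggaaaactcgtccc
H2-M5 (chr17:36989484-36989783, minus strand): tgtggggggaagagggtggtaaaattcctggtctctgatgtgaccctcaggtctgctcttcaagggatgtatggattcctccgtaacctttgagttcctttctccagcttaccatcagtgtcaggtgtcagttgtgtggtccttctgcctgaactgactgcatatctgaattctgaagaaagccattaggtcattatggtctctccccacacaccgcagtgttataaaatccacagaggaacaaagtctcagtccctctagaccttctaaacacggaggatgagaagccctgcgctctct
H2-M2 (chr17:37483505-37483804, minus strand): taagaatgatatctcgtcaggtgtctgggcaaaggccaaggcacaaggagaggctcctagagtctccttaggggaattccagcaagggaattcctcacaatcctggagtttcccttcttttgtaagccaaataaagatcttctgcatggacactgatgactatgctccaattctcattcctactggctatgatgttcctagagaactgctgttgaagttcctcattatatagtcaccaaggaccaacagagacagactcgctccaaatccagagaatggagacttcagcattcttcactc
The kappa B palindrome occurred in 10 of 32851 promoter windows (0.0304%), among them H2-K1, H2-D1 and H2-Q6, the last a Qa-2 gene. In all 3 genes TTTCACTT began 21 bases after the start of the palindrome. TTTCACTT occurred in 1.60% of all windows and in 10 of the 34 genes of the set with a window, and the spaced GAAA repeat in 3.44% of all windows and in 5 of the 34. The 2 interferon response forms overlap in Erap1 and H2-T22. TTCNNNGAA was in 8.30% of all windows and in 3 of the 34 genes (Psmb8, H2-M3 and H2-M11), and the CCAAT box in 37.4% of all windows and in 25 of the 34. Tap1 and Psmb9 are transcribed away from each other, and their windows share 275 of 300 bases. The windows of Tap1, Psmb9, H2-M5, H2-M2 and Mr1 held none of the capitalised letters.

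Between FceRIa-positive and FceRIa-negative macrophages 6 class I genes were called by edgeR with the replicate number as a blocking factor, and none without it at the same count filter. In the blocked fit the transporter genes Tap1 and Tap2 and the immunoproteasome genes Psmb8 and Psmb9 were lower, by 1.51-, 1.21-, 1.37- and 1.47-fold. H2-M5, a non-classical heavy chain gene, was 68.1-fold lower, and Mr1, which presents riboflavin metabolites to mucosal-associated invariant T cells, was 1.87-fold higher. H2-K1, H2-D1, B2m, Psmb10, Tapbp and the other loading genes did not pass the test. In edgeR's quasi-likelihood test with the block, 1 of the 34 genes was higher and 5 were lower at an adjusted p under 0.05 (Benjamini-Hochberg), where 10.8% and 10.2% of the 14988 genes tested were. The 5 include H2-M5, which passed the low-count filter through its FceRIa-negative counts. Leaving out the libraries numbered 2 under the block called the same 6 genes, where 8.66% of genes were higher and 9.17% lower. Without those numbered 1 all but Tap2 were called (4.11% of genes higher and 4.54% lower), and without those numbered 3 H2-T23 and Psme2 were lower as well (11.2% higher and 10.4% lower). Without the block no gene of the whole table passed (0 of 14988, 0%), with 1243 higher and 1102 lower at an unadjusted p under 0.05, and DESeq2 without the block called 658 higher and 605 lower. At that unadjusted p 1 gene of the set was higher and 3 were lower, and DESeq2 called Mr1 higher and H2-M5 and Tap1 lower. In 5 of the 34 genes the groups did not overlap (Mr1 and H2-K1 above, H2-M5, Tap1 and Psmb9 below), as in 21.4% of all genes.

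H2-M5, on chromosome 17 from base 36984061 to 36989537 on the minus strand, showed the largest difference of the set between the macrophage sorts. It had 21, 7 and 27 counts in FceRIa-positive libraries 1, 2 and 3, against 553, 1168 and 2507 counts in FceRIa-negative libraries. In CPM these were 0.580, 0.191 and 0.796 in FceRIa-positive macrophages and 13.9, 27.2 and 74.2 in FceRIa-negative macrophages. The groups were far apart and the FceRIa-negative libraries also varied widely among themselves. H2-M5 passed the low-count filter through its FceRIa-negative counts, so it could hardly have come out higher. The log2 difference was -6.09 ± 0.32 (SE) with the block (edgeR adjusted p = 6.79e-05) and -6.20 without it (adjusted p = 0.0585).

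Mr1 was the only gene of the set called higher with the block. It stood at 34.4, 27.9 and 26.8 CPM in FceRIa-positive libraries, against 17.1, 15.3 and 15.0 CPM in FceRIa-negative libraries. The groups did not overlap. The log2 difference was 0.90 ± 0.08 (SE) with the block (edgeR adjusted p = 4.5e-04), and the adjusted p was 0.0585 without it. Mr1 lies on chromosome 1, from base 155127277 to 155146814 on the minus strand. Cd1d1, which presents lipids to NKT cells, had a log2 difference of 0.13 ± 0.14 with the block and was not called.

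Tap1, one chain of the peptide transporter, stood at 74.5, 70.6 and 89.0 CPM in FceRIa-positive libraries, against 117.5, 102 and 135 CPM in FceRIa-negative libraries. Its groups did not overlap, and the log2 difference was -0.60 ± 0.07 with the block (edgeR adjusted p = 0.0011; 0.0997 without it). Tap2, the other chain, stood at 52.4, 41.5 and 61.8 CPM in FceRIa-positive and 70.0, 45.1 and 76.0 CPM in FceRIa-negative libraries. The Tap2 groups overlap, each FceRIa-positive library being below the FceRIa-negative library of its number. Its log2 difference was -0.28 ± 0.08 with the block (edgeR adjusted p = 0.0403; 0.658 without it), and the call was lost without the libraries numbered 1 and in DESeq2 with the block.

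Psmb9 stood at 44.3, 57.2 and 62.4 CPM in FceRIa-positive libraries and 73.2, 71.6 and 94.9 CPM in FceRIa-negative libraries. Psmb8 stood at 87.0, 95.9 and 129 CPM in FceRIa-positive libraries and 129, 122 and 175 CPM in FceRIa-negative libraries. Psmb9 separated the groups, while those of Psmb8 overlapped. The log2 differences with the block were -0.55 ± 0.09 for Psmb9 (edgeR adjusted p = 0.00401; 0.181 without it) and -0.45 ± 0.08 for Psmb8 (0.00501; 0.354 without it). Psmb10, the immunoproteasome subunit encoded outside the H2 region, stood at 90.9, 109 and 135.5 CPM in FceRIa-positive and 117, 114 and 121 CPM in FceRIa-negative libraries, and was not called (log2 difference with the block -0.09 ± 0.10).

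**Figure D1:**
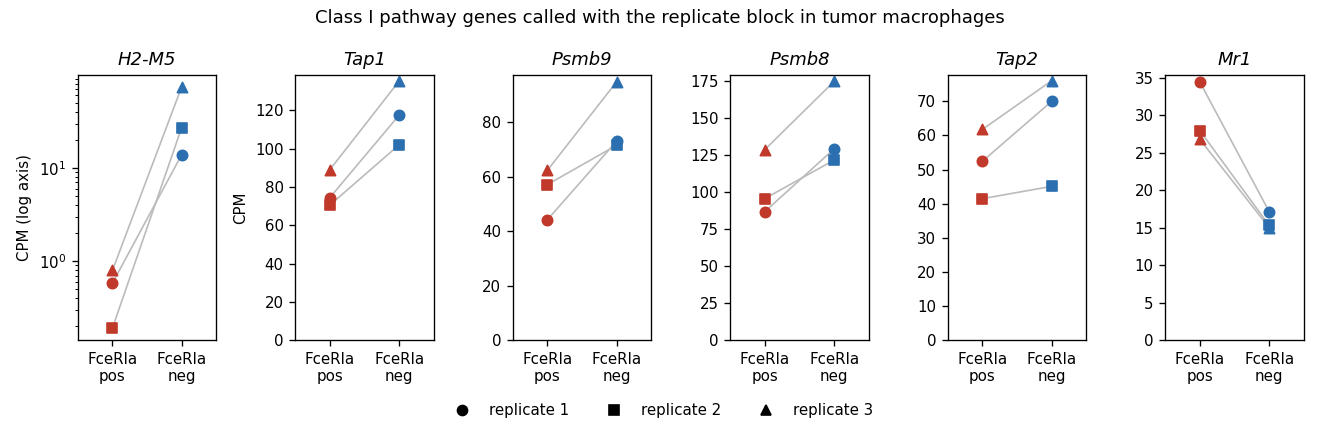
CPM of the 6 class I pathway genes called with the replicate block, in FceRIa-positive (left) and FceRIa-negative (right) macrophages, with points for single libraries and grey lines joining libraries of the same number (log axis for H2-M5 only). Mr1 is higher in every FceRIa-positive library than in any FceRIa-negative one, and the other 5 genes are lower in each FceRIa-positive library than in the FceRIa-negative library of its number.

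The immunoproteasome subunits can be set against the constitutive subunits whose places they take, Psmb5 for Psmb8 and Psmb6 for Psmb9. The count ratio of Psmb8 to Psmb5 was 4.23, 3.18 and 5.01 in FceRIa-positive libraries and 5.50, 3.82 and 7.72 in FceRIa-negative libraries. The ratio of Psmb9 to Psmb6 was 0.340, 0.441 and 0.376 in FceRIa-positive and 0.543, 0.552 and 0.689 in FceRIa-negative libraries. Both ratios were lower in the FceRIa-positive library of all 3 numbers. The ratio of Psmb10 to Psmb7 was lower in numbers 1 and 2 and higher in number 3 (0.966, 0.977 and 1.196 times the FceRIa-negative value). None of the 17 constitutive proteasome genes was called with the block, where 10.8% of all genes were higher and 10.2% lower. Their median log2 difference with the block was -0.08, against -0.00 over all genes tested. These ratios were chosen after the values were seen and were not tested between the sorts.

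Tap1, Tap2, Psmb8 and Psmb9 are neighbours on chromosome 17, between bases 34181987 and 34216321, inside the class II region of the H2 complex. Within 100 kb on either side of the Tap1 start 12 genes were tested, and 11 were lower in FceRIa-positive macrophages with the block, where 10.2% of all genes were. These were the 4 class I supply genes and 7 of 8 others, all 7 of them class II genes: H2-Oa (-1.82 ± 0.17 on the log2 scale), H2-Ob (-1.34 ± 0.11), H2-DMb2 (-0.92 ± 0.09), H2-Ab1 (-0.76 ± 0.17), H2-DMa (-0.66 ± 0.12), H2-Aa (-0.66 ± 0.18) and H2-DMb1 (-0.62 ± 0.13). H2-Ab1 and H2-Aa encode a class II chain pair, and H2-DM and H2-O genes encode its loading and editing factors. Brd2, a bromodomain gene in the same window, was not called (-0.02 ± 0.08). The window was chosen after the values were seen. Tap1 and Psmb9 overlap by 212 bases on opposite strands, and reads there cannot be told apart because no strand setting is given in the sources used here.

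**Figure D2:**
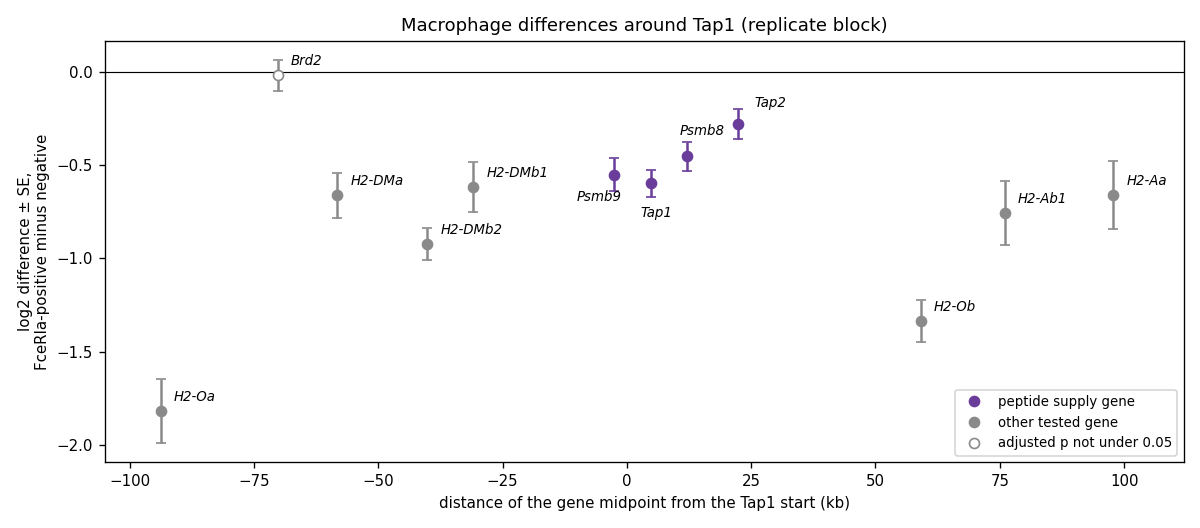
Log2 difference (FceRIa-positive minus FceRIa-negative macrophages, replicate block, bars ± SE) of the 12 tested genes within 100 kb of the Tap1 start, against distance of the gene midpoint in kb, with class I supply genes in purple and an open symbol for a gene not called. The 11 called genes lie below 0, the class I supply genes between -0.28 and -0.60, and Brd2 at -0.02 lies within its SE of 0.

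The classical heavy chains and the light chain did not pass the test between the macrophage sorts. H2-K1 stood at 692.5, 703 and 853 CPM in FceRIa-positive libraries and 605, 633 and 609 CPM in FceRIa-negative libraries. The groups did not overlap, but the log2 difference of 0.28 ± 0.10 was not called by edgeR with the block (adjusted p = 0.0922; 0.366 without it), while DESeq2 with the block did call it. H2-D1 stood at 1727, 991 and 2304 CPM in FceRIa-positive and 1565, 929 and 1883 CPM in FceRIa-negative libraries. B2m stood at 1945, 2339 and 2624 CPM in FceRIa-positive and 1828, 2153 and 2020 CPM in FceRIa-negative libraries. For both genes the ranges overlap, and the log2 differences with the block were 0.18 ± 0.10 and 0.20 ± 0.11 (edgeR adjusted p = 0.266 and 0.262). B2m lies wholly within the span of Patl2 on the other strand, and without a strand setting their reads cannot be told apart.

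Nlrc5 stood at 24.0, 32.8 and 24.8 CPM in FceRIa-positive macrophages and 20.3, 29.0 and 21.1 CPM in FceRIa-negative macrophages. Tapbp stood at 194, 193 and 218 CPM in FceRIa-positive and 222, 180.5 and 227 CPM in FceRIa-negative macrophages. Neither was called, with log2 differences with the block of 0.22 ± 0.08 for Nlrc5 (edgeR adjusted p = 0.0862) and -0.05 ± 0.08 for Tapbp. Nlrc5 was higher in the FceRIa-positive library of each number. The loading genes Calr, Pdia3, Erap1 and Tapbpl had log2 differences of 0.24 ± 0.12, 0.09 ± 0.10, -0.03 ± 0.07 and -0.03 ± 0.08 with the block, and the proteasome activator genes Psme1 and Psme2 had -0.20 ± 0.09 and -0.22 ± 0.10. None of these 6 was called. Among the 16 tested H2 genes outside H2-K1 and H2-D1, H2-M5 was the only one called. H2-M3, which presents N-formyl peptides, and H2-T23, the Qa-1 ligand of the inhibitory receptor CD94-NKG2A, differed by -0.02 ± 0.08 and -0.21 ± 0.10.

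Other genes around the class I pathway gave a mixed picture in macrophages with the block. Over all genes tested 10.8% were higher and 10.2% lower, and several of the counts below lie near these shares. Of 8 class II genes 6 were lower, and the class II transactivator Ciita fell to 281 ± 67.1 CPM in FceRIa-positive macrophages, against 499 ± 68.2 CPM in FceRIa-negative macrophages (SD, n = 3 each; edgeR adjusted p = 0.00104 with the block). Of 20 interferon-induced genes 4 were higher (Gbp7, Rsad2, Iigp1 and Mx1) and 1 was lower (Usp18), with a median log2 difference of 0.17, against -0.00 over all genes. Gbp7, a guanylate-binding protein gene, averaged 170 ± 25.0 CPM in FceRIa-positive and 115 ± 34.6 CPM in FceRIa-negative macrophages. Of 15 interferon signalling genes none was higher and 2 were lower: the kinase gene Jak2 (-0.84 ± 0.10) and its inhibitor Socs1 (-0.66 ± 0.14). Of 15 factors that act on class I promoters only Ezh2, the Polycomb methyltransferase, was called (-0.58 ± 0.11), and of 12 endoplasmic reticulum folding genes only Pdia4 (0.54 ± 0.12). Among 8 tested genes of other class I-fold proteins, Fcgrt, the neonatal Fc receptor, was higher (1.48 ± 0.16), as was the iron regulator Hfe (0.54 ± 0.08), and Procr, the protein C receptor, was lower (-0.71 ± 0.12). Both Fcgrt and Hfe pair with B2m.

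Markers of other cell types moved with the macrophage sort. With the block 10.8% of all genes tested were higher and 10.2% lower. Of 11 tested markers of dendritic and Langerhans cells 8 were lower with the block and none was higher, and their summed level was 792 to 1069 CPM in FceRIa-positive and 1363 to 1953 CPM in FceRIa-negative libraries. Cd207, the Langerhans cell lectin, averaged 18.9 ± 16.7 CPM in FceRIa-positive and 147 ± 89.8 CPM in FceRIa-negative macrophages. Of 12 macrophage markers 10 were higher and none was lower, with summed levels of 30229 to 33445 CPM in FceRIa-positive and 16962 to 21358 CPM in FceRIa-negative libraries. General leukocyte markers had 5 of 13 higher and 4 lower (22193 to 25513 CPM summed in FceRIa-positive and 15717 to 17427 CPM in FceRIa-negative libraries). Keratinocyte markers were lower in 11 of 13 cases, with sums of 655 to 2861 CPM in FceRIa-positive and 2338 to 4666 CPM in FceRIa-negative libraries. Of 5 tested T and NK cell markers 4 were lower and Cd4 was higher (summed levels 124 to 172 CPM in FceRIa-positive and 67.0 to 80.7 CPM in FceRIa-negative libraries). B cell markers had 1 of 3 lower (17.8 to 20.2 and 29.8 to 64.8 CPM), mast cell and basophil markers 3 of 8 lower (5.80 to 8.87 and 15.8 to 25.1 CPM), fibroblast markers 0 of 6 called (62.9 to 199 and 89.7 to 108 CPM) and endothelial markers 1 of 6 higher (51.7 to 87.4 and 39.5 to 60.4 CPM), each with FceRIa-positive sums before FceRIa-negative ones. Of 13 dissociation stress genes 5 were lower. The whole stress list summed to 4447, 1921 and 5163 CPM in FceRIa-positive libraries 1, 2 and 3. In FceRIa-negative libraries it summed to 4494, 2037 and 6635 CPM. The part of these differences in the class I results was not tested, and in such sorted populations a change in the mix of cells and a change in RNA per cell cannot be told apart.

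Between reporter-positive and reporter-negative carcinoma cells Psmb8 was the only class I gene called with all libraries. It was 1.45-fold higher in reporter-positive cells with the replicate block. With the block 1 of 30 genes was higher and none was lower, where 10.7% and 7.34% of the 13604 genes tested were. Without the block edgeR called none of the 30, where 0.809% of all genes were called. At an unadjusted p under 0.05, 2 were higher (Psmb8 and Tapbpl) and 0 lower, where 1508 and 1134 of all genes were. DESeq2 without the block called Psmb8 alone, where 708 genes were higher and 455 lower. In 3 genes the groups did not overlap (Psmb8 and Tapbpl above, H2-Bl below), as in 28.2% of all genes.

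Psmb8 stood at 25.6, 25.8 and 22.6 CPM in reporter-positive cells, against 15.9, 19.8 and 15.5 CPM in reporter-negative cells. Every reporter-positive library was above every reporter-negative one. The log2 difference was 0.53 ± 0.08 with the block (edgeR adjusted p = 0.0109; 0.0905 without it). It was called also with the near-identical libraries 1 and 3 summed and the block kept (adjusted p = 0.0419), but not with them summed and no block. The count ratio of Psmb8 to Psmb5 was 0.425, 0.321 and 0.391 in reporter-positive and 0.243, 0.258 and 0.238 in reporter-negative libraries. Psmb9 stood at 5.12, 7.22 and 5.83 CPM in reporter-positive and 5.66, 7.76 and 4.59 CPM in reporter-negative cells, and Psmb9 and Psmb10 had log2 differences with the block of 0.02 ± 0.13 and -0.07 ± 0.06.

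H2-K1 stood at 171, 239 and 167 CPM in reporter-positive cells and 192.5, 237 and 183.5 CPM in reporter-negative cells. H2-D1 stood at 556, 674 and 552 CPM in reporter-positive and 629, 685 and 621 CPM in reporter-negative cells. B2m stood at 120.2, 221 and 122 CPM in reporter-positive and 109, 173 and 113 CPM in reporter-negative cells. In all 3 genes the ranges overlap and the libraries numbered 2 stood highest within their group. The log2 differences with the block were -0.10 ± 0.05, -0.12 ± 0.06 and 0.21 ± 0.06 (edgeR adjusted p = 0.26, 0.172 and 0.0706). The count ratio of B2m to the sum of H2-K1 and H2-D1 was 1.25, 1.30 and 1.21 times as high in the reporter-positive library of numbers 1, 2 and 3, a ratio chosen after the values were seen and not tested.

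Tap1 stood at 20.6, 28.8 and 19.7 CPM in reporter-positive cells and 18.7, 27.5 and 17.8 CPM in reporter-negative cells. Tap2 stood at 24.6, 25.9 and 23.1 CPM in reporter-positive and 21.97, 25.8 and 19.1 CPM in reporter-negative cells. Tapbp stood at 55.9, 66.1 and 53.5 CPM in reporter-positive and 48.6, 67.3 and 46.1 CPM in reporter-negative cells. None of the 3 was called, with log2 differences of 0.12 ± 0.06, 0.15 ± 0.07 and 0.13 ± 0.06 with the block. Nlrc5 was low, at 1.80, 4.89 and 2.20 CPM in reporter-positive and 3.30, 6.41 and 2.44 CPM in reporter-negative cells (log2 difference with the block -0.47 ± 0.17, edgeR adjusted p = 0.112). Nlrc5 was lower in the reporter-positive library of each number, though the ranges overlap. H2-T23 and H2-Q7 came nearest to a call among non-classical genes, with log2 differences of 0.31 ± 0.09 and 0.88 ± 0.24 (adjusted p = 0.0548 and 0.0508 with the block). H2-Q10, Mr1 and H2-Q2 differed by 0.90 ± 0.37, 0.57 ± 0.24 and -0.52 ± 0.17 on the log2 scale and were not called either, so larger differences than that of Psmb8 were among those not called.

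The carcinoma counts of called genes turned on the libraries numbered 2. Without them, with the block, 9 of 30 genes were higher (Psmb8, Psme1, Tapbp, Tapbpl, Tap2, Mr1, H2-Q4, B2m and H2-T23) and 4 were lower (H2-K1, H2-D1, Nlrc5 and H2-Q2), where 21.5% and 20.6% of 13620 genes were. That fit rests on the libraries 1 and 3 alone, which hardly differ. Without the libraries numbered 1 the block gave 2 higher and 2 lower of 31 genes, where 7.67% and 3.62% of 13753 genes were. Without those numbered 3 it called Psmb8 alone, where 5.81% of genes were higher and 2.46% lower. Leaving out the libraries numbered 2 with no block gave 8 higher and 3 lower, where 20.4% and 19.2% of genes were.

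Around the pathway, none of 15 interferon signalling genes, 17 constitutive proteasome genes or 12 endoplasmic reticulum folding genes was called in carcinoma cells with the block. Over all genes tested 10.7% were higher and 7.34% lower. Of 11 interferon-induced genes 1 was higher, Gbp2, at 2.34 ± 1.13 CPM in reporter-positive and 1.34 ± 1.05 CPM in reporter-negative cells (SD, n = 3 each; edgeR adjusted p = 0.0388 with the block). Of 15 class I promoter factors 5 were lower: Nfyb, Nfyc, Ezh2, Atf1 and Eed. Nfyb, a subunit of the CCAAT-binding factor NF-Y, fell to 29.9 ± 1.9 CPM in reporter-positive cells, against 41.3 ± 1.1 CPM in reporter-negative cells (SD, n = 3 each; edgeR adjusted p = 0.00939 with the block and 0.0484 without it). Of 6 other class I-fold genes H60c, an NKG2D ligand, was higher (0.50 ± 0.07 on the log2 scale).

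RNA of genes listed as leukocyte markers was low in the carcinoma libraries, and its sum was highest in those numbered 2. Of 11 tested leukocyte markers 3 were higher with the block (S100a8, Lyz2 and Csf1r), where 10.7% of all genes were higher and 7.34% lower. The whole list summed to 54.6, 218.5 and 53.5 CPM in reporter-positive and 33.9, 89.1 and 33.6 CPM in reporter-negative libraries 1, 2 and 3. S100a8 had the highest mean of the tested markers, at 68.4 ± 60.9 CPM in reporter-positive and 21.9 ± 8.19 CPM in reporter-negative cells (SD, n = 3 each). Ptprc averaged 1.51 ± 0.91 and 1.14 ± 0.54 CPM. Whether the S100a8 RNA came from leukocytes or carcinoma cells was not tested, so the sum is no measure of leukocyte RNA alone. Class II genes summed to 160 CPM in reporter-positive and 126 CPM in reporter-negative library 2 and to between 16.5 and 23.5 CPM in the others, and H2-Ab1 was the 1 of 6 called higher. Macrophage markers had 3 of 12 higher (217 to 275 CPM summed in reporter-positive and 190 to 229 CPM in reporter-negative libraries) and dendritic and Langerhans markers 1 of 4. Keratinocyte markers had 4 of 13 higher (82885 to 102538 and 82982 to 92590 CPM, reporter-positive sums before reporter-negative ones), and fibroblast markers (36.4 to 157 and 39.5 to 122 CPM) and endothelial markers (15.7 to 22.8 and 14.6 to 19.0 CPM) had none called. T and NK, B and mast cell markers did not pass the low-count filter, and their sums did not exceed 0.558, 0.492 and 6.53 CPM, the last in reporter-positive library 2. Cd3e and Nkg7 had no counts in any carcinoma library. Of 13 dissociation stress genes 6 were higher. The whole stress list summed to 8832.5, 4235 and 8705 CPM in reporter-positive libraries 1, 2 and 3. In reporter-negative libraries it summed to 8067, 3487 and 7661 CPM. The part of these values in the class I results was not tested.

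**Figure D3:**
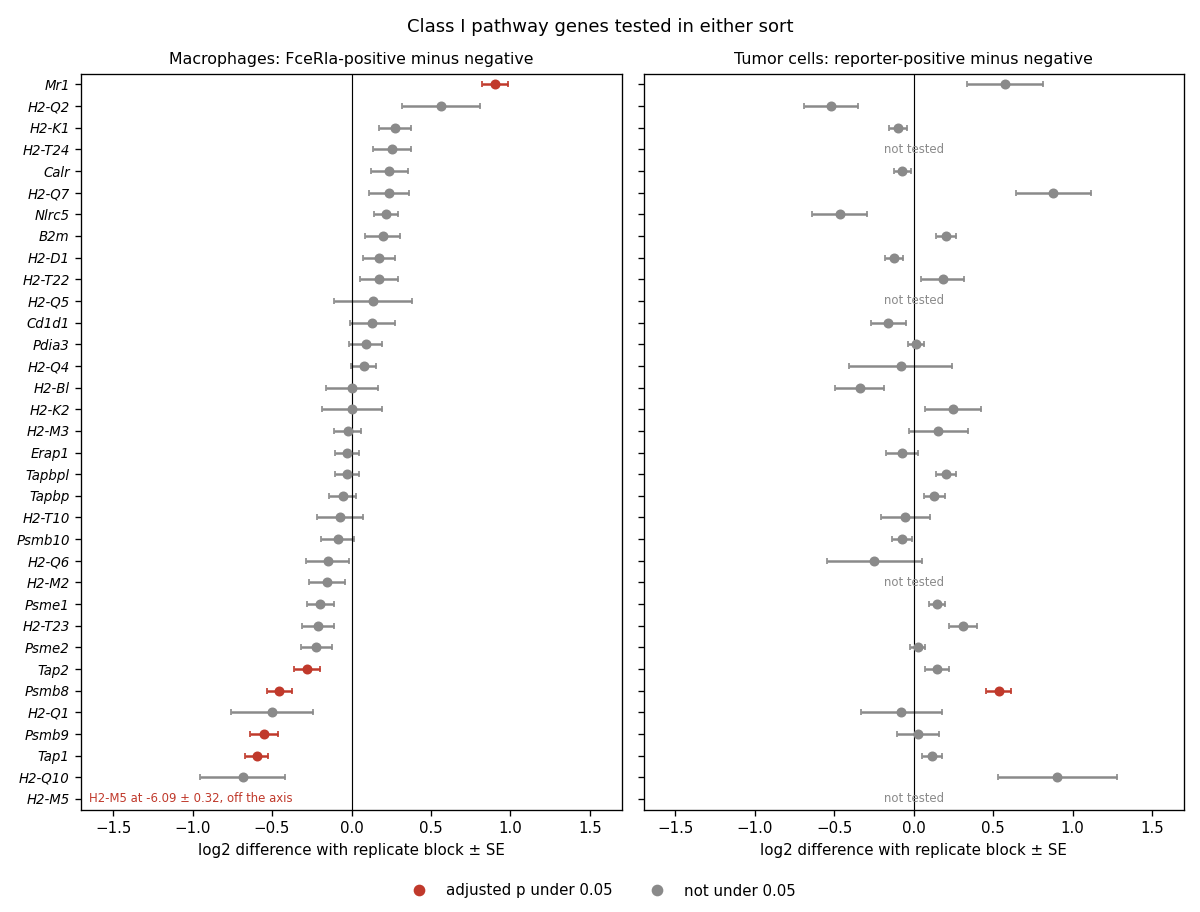
Log2 differences with the replicate block (± SE) for the 34 class I pathway genes tested in either sort, FceRIa-positive minus FceRIa-negative macrophages on the left and reporter-positive minus reporter-negative carcinoma cells on the right, with red for an adjusted p under 0.05. In macrophages Mr1 stands to the right of 0 and Tap2, Psmb8, Psmb9 and Tap1 to the left (H2-M5 at -6.09 is off the axis), and in carcinoma cells Psmb8 alone is red.

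Psmb8 was called with the block in both sorts and in opposite directions, with a log2 difference with the block of -0.45 ± 0.08 for FceRIa-positive macrophages and 0.53 ± 0.08 for reporter-positive carcinoma cells. The contrasts are different sorts, and the difference between them was not tested.

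Several heavy chain genes varied more with the replicate number than with the sort. Both macrophage libraries numbered 2 had 0 counts of H2-Q1 and H2-Q2, against 64 to 128 and 355 to 867 counts in the 4 others. A count of 0 allows up to 0.0819 CPM in the FceRIa-positive and 0.0698 CPM in the FceRIa-negative library. H2-Bl had 1 and 2 counts in them, against 240 to 357 counts in the others. The same 2 libraries were also low in H2-Q6 (52 to 90 counts, against 567 to 801), H2-Q10, which encodes a secreted class I protein of liver (4 to 19 counts, against 82 to 148), H2-Q4 and H2-Q7. They had 2.36 times the H2-T23 level, 2.47 times the H2-T22 level and 3.65 times the H2-M2 level of the others, and 0.514 times that of H2-D1, whereas H2-K1 was at 0.968 times. In all, 7 of 34 genes were more than 3-fold lower without overlap in the libraries numbered 2, where 1.75% of all genes were, and 1 (H2-M2) was more than 3-fold higher, where 0.927% were.

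The replicate number also ran with the sex-linked genes. Macrophage libraries numbered 2 had 4 to 6 Xist counts and 4817 to 5972 counts of the Y-linked Ddx3y, those numbered 3 had 16108 to 18122 and 3 to 6, and those numbered 1 had both, with 8506 to 12096 Xist counts and 1287 to 1584 Ddx3y counts. In carcinoma cells every library had Ddx3y (886 to 1459 counts) and no more than 5 Xist counts, so macrophage and carcinoma libraries with the same number need not share an animal. The carcinoma libraries numbered 2 differed in other class I genes: H2-T22 and H2-T23 were at 0.411 and 0.496 times the level of libraries 1 and 3, B2m at 1.697 times, Nlrc5 at 2.32 times and H2-Q7 at 2.75 times. H2-Q1, H2-Q2 and H2-Bl were present in all 6. FVB mice carry another H2 haplotype than the C57BL/6J reference genome, and near-identical H2 genes share reads, so the split of counts among H2-Q, H2-T and H2-D genes is uncertain. Its part in these patterns was not tested. Whether the animals behind the libraries numbered 2 carry the H2 haplotype of the others was not tested either. The macrophage libraries numbered 2 are also those with New in their headers, which cannot be told apart from the number. In both cell types the libraries numbered 2 had the lowest summed dissociation stress RNA, and its part was not tested.

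**Figure D4:**
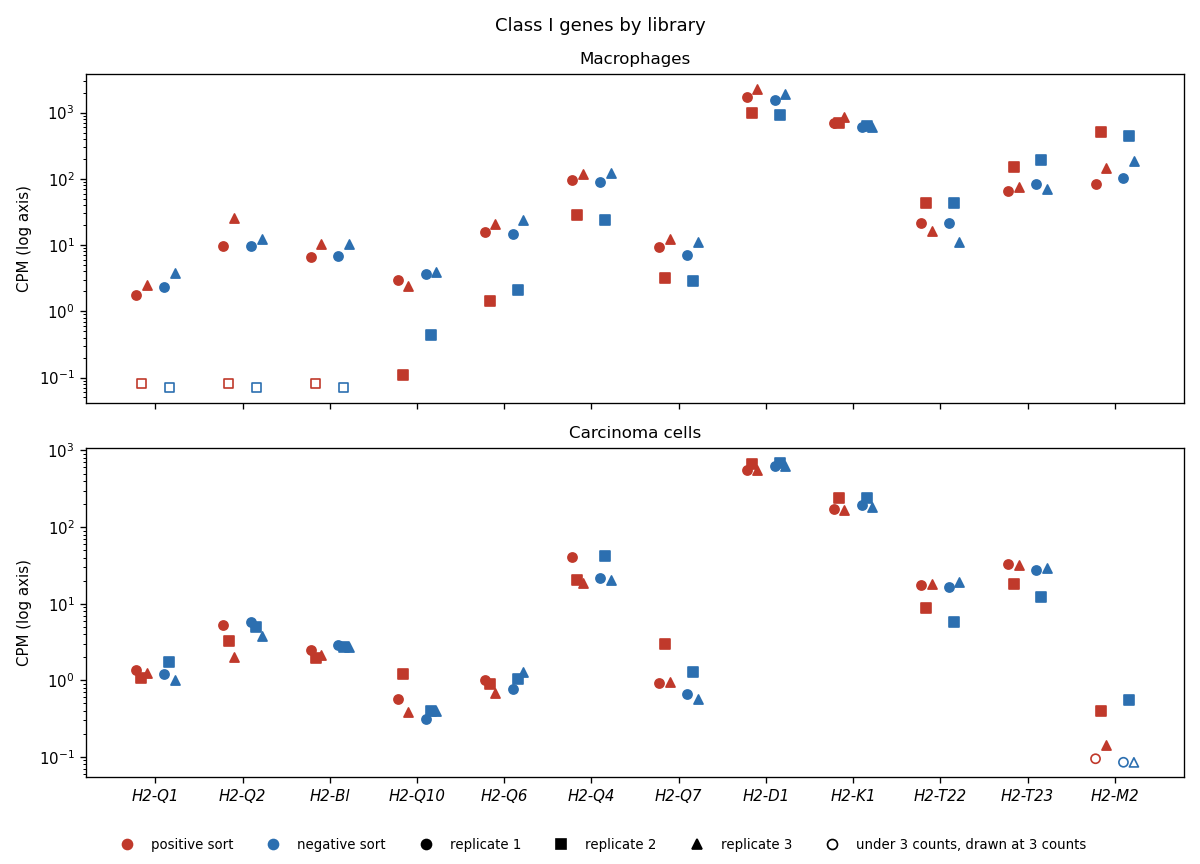
CPM (log axis) of 12 heavy chain genes in each macrophage library (top) and carcinoma library (bottom), with red for the positive and blue for the negative sort, marker shape for the replicate number and open symbols at the level of 3 counts for libraries with fewer. In macrophages the squares of replicate 2 fall apart from the others for H2-Q1, H2-Q2, H2-Bl, H2-Q10 and H2-Q6 in both sorts, while red and blue overlap.

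Macrophages had higher levels of most class I genes than carcinoma cells. On a joint TMM scaling, 26 of 34 genes were higher in macrophages and none was lower (edgeR, adjusted p under 0.05), where 44.8% and 40.6% of the 16279 genes tested were. The median log2 difference of the 34 genes was 1.69, against 0.09 over all genes. The other 8, not called, were Calr, Psme2, Cd1d1, H2-T22, H2-T10, H2-Bl, H2-Q1 and H2-Q2. H2-M2, H2-M5, H2-T24 and H2-Q5 did not pass the low-count filter in carcinoma cells, with 38, 2, 18 and 19 counts. They entered through their macrophage counts and could hardly come out lower, and the 26 and the median include them. With the libraries of each number summed within a cell type, leaving 3 against 3, 25 of the 34 were higher and H2-Q10 was no longer called. In that fit 7072 of 16843 genes were higher and 6204 lower. It counts the nearly identical carcinoma libraries 1 and 3 as separate, so the carcinoma side holds fewer than 3 independent samples. Cell type and deposited table cannot be told apart in this comparison.

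Among the genes of the classical molecule B2m differed most, with a mean of 2093 ± 278 CPM in macrophages and 147 ± 47.7 CPM in carcinoma cells (SD, n = 6 each), a 14.2-fold difference. H2-K1 averaged 664 ± 88.9 CPM in macrophages and 204 ± 34.5 CPM in carcinoma cells, 3.24-fold, and H2-D1 1524 ± 512 CPM and 637 ± 61.8 CPM, 2.39-fold. For each of these genes the lowest macrophage library was above the highest carcinoma library. Nlrc5 was 6.89-fold higher (log2 difference 2.78 ± 0.30), Psmb9 10.4-fold, Mr1 10.8-fold, Psmb8 5.60-fold, Tap1 4.10-fold, Tapbp 3.46-fold, Psmb10 3.20-fold and Tap2 2.33-fold. The chaperone gene Pdia3 (1.39-fold), the PA28 subunit gene Psme1 (1.43-fold) and Tapbpl (1.31-fold) had the smallest differences called.

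Some H2-M and H2-T genes were close to absent from carcinoma cells. H2-M2 had 55919 counts over the 6 macrophage libraries and 38 over the 6 carcinoma libraries, with 12 to 17 of these in each of the libraries numbered 2. H2-M5 had 4283 counts in macrophages and 2 in carcinoma cells, and H2-T24 2152 and 18. H2-M3 stood at 61.6 ± 5.98 CPM in macrophages and 1.75 ± 0.19 CPM in carcinoma cells (SD, n = 6 each), 35.1-fold apart. The carcinoma libraries numbered 2 were also those with the highest summed leukocyte markers, and the part of these in the H2-M2 counts was not tested.

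Per kilobase of exon, the order of the genes differed between the cell types. In macrophages B2m stood first at 2434 CPM per kb, followed by H2-D1 (591), Calr (459), Pdia3 (355), H2-K1 (226) and H2-M2 (153). The place of H2-M2 rested on the libraries numbered 2: over the 4 others it averaged 81.2 CPM per kb, behind Psme2 at 88.0. In carcinoma cells Calr stood first at 401 CPM per kb, followed by Pdia3 (256), H2-D1 (247), B2m (171), Psme2 (87.9) and H2-K1 (69.4). Among non-classical genes H2-M2 led in macrophages with and without the libraries numbered 2. Over all macrophage libraries H2-M3 (42.8) and H2-T23 (36.0) came next. Without those numbered 2, H2-M3 (41.2) and H2-Q4 (39.9) came next, ahead of H2-T23 (24.8). In carcinoma cells H2-Q4 (10.8) and H2-T23 (9.02) led. Neighbours in this order were not always separated: in FceRIa-positive macrophages H2-D1 averaged 649 ± 255 and Calr 512 ± 88.0 CPM per kb, and in reporter-positive carcinoma cells Pdia3 averaged 250.7 ± 1.49 and H2-D1 230 ± 26.9 CPM per kb (SD, n = 3 each).

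**Figure D5:**
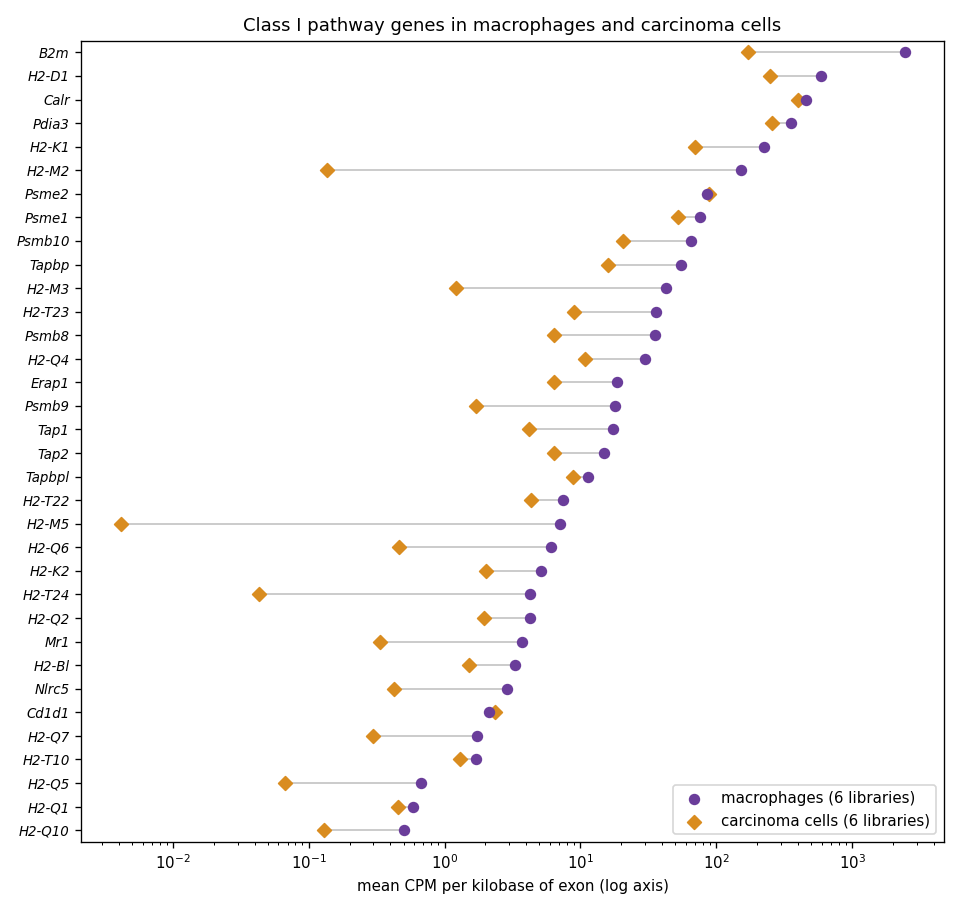
Mean CPM per kilobase of exon (log axis, joint scaling) of the 34 tested class I pathway genes in macrophages (purple circles, 6 libraries) and carcinoma cells (orange diamonds, 6 libraries), ordered by the macrophage level. B2m is the highest in macrophages at 2434, and H2-M2, H2-M5, H2-T24 and H2-M3 show the widest gaps, while Calr, Psme2 and Cd1d1 lie almost on each other.

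Count ratios within a library need no scaling between cell types. The ratio of B2m to the sum of H2-K1 and H2-D1 was 0.804 to 1.38 in macrophage libraries and 0.133 to 0.242 in carcinoma libraries, 5.76-fold apart on geometric means. The ratio of Psmb8 to Psmb5 was 3.18 to 7.72 in macrophages and 0.238 to 0.425 in carcinoma cells (15.5-fold), that of Psmb9 to Psmb6 0.340 to 0.689 and 0.0194 to 0.0312 (18.0-fold), and that of Psmb10 to Psmb7 1.25 to 1.51 and 0.144 to 0.206 (8.48-fold). For these 4 ratios the ranges did not overlap. The ratio of H2-K1 to H2-D1 overlapped, at 0.323 to 0.709 in macrophages and 0.295 to 0.355 in carcinoma cells. The 5 ratios were chosen after the values were seen. With the libraries of each number averaged, the two-sided exact permutation test of 3 against 3 gave p = 0.1 for each of the 4 separated ratios, the smallest that it can give. Carcinoma libraries 1 and 3 count as separate here although they are nearly the same library, so that side holds fewer than 3 independent samples.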

How the data were processed

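RNA-seq of sorted mouse cells was analysed from gene counts as deposited by the authors, whole numbers per gene in one table per cell type. Per the submitters' processing notes FastQC and STAR were used with mm10 (GRCm38), and neither the counting tool nor its strand setting or annotation is stated in what was used here. The 4 columns that match no sample were not used. Gene spans and exon lengths came from GENCODE M21, and promoters from RefSeq.

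The genes and gene lists were chosen with earlier results of these data known. Tests used the quasi-likelihood method of edgeR 4.0.16 under R 4.3.3 (TMM, filterByExpr, Benjamini-Hochberg over all genes tested, threshold 0.05). The main fit had no block, and the replicate block and DESeq2 1.42.0 were alternatives. The main fit called no class I gene in either sort, so the calls given first for each sort come from the block. The text names every gene of the set, gives each library for H2-K1, H2-D1, B2m, Tap1, Tap2, Tapbp, Psmb8, Psmb9, Nlrc5 and called genes, and takes up to 4 genes by smallest p from the other lists. Where 5 or fewer genes of a list were called all are named, so that Mx1 in macrophages and Eed in carcinoma cells go beyond that limit, picked once their values were known. The test was tried on simulated counts with known changes. Their spread was smaller than that of the fits without the block, so the trial does not measure power or false calls in these data. Depth was 27951632 to 40041144 counts per library. Where nothing says that libraries came from separate animals, p-values measure only the spread between these libraries.

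Same-numbered positive and negative libraries deviated together from their group means (r = 0.554, 0.733 and 0.56 in carcinoma cells and 0.729, 0.831 and 0.762 in macrophages), so the numbers were taken to pair them within a cell type. Carcinoma libraries 1 and 3 correlated across numbers as well (0.561 and 0.571). The fit with the block had 2 residual degrees of freedom, against 4 without it.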

Additional observations from a re-analysis of the deposited data

How the results depend on the processing

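Without a block edgeR called no class I gene in either sort, and this held with DESeq2 size factors, upper-quartile factors, a mean of at least 1 CPM and each library left out (range 0 to 0 for genes higher and for genes lower, in both sorts). DESeq2 called 1 higher in carcinoma cells and 1 higher and 2 lower in macrophages, where 658 and 605 of 14988 genes were in macrophages. Dropping the count filter gave 1 higher and 1 lower in macrophages, where 292 and 331 of 31543 genes were. With the replicate block 1 gene was higher in carcinoma cells, where 1450 of 13604 genes were higher and 999 lower. In macrophages 1 was higher and 5 lower, where 1618 and 1524 of 14988 genes were. With DESeq2 and the block 1 was higher in carcinoma cells, where 1043 of 13604 genes were higher and 644 lower. In macrophages this gave 2 higher and 4 lower, where 1445 and 1362 of 14988 genes were. Leaving out a numbered pair under the block gave 2, 9 and 1 higher and 2, 4 and 0 lower in carcinoma cells (without pairs 1, 2 and 3), where 7.67%, 21.5% and 5.81% of all genes were higher and 3.62%, 20.6% and 2.46% lower. In macrophages it gave 1 higher each time and 4, 5 and 7 lower, where 4.11%, 8.66% and 11.2% of all genes were higher and 4.54%, 9.17% and 10.4% lower. Chosen after seeing the data, leaving out the libraries numbered 2 without the block gave 8 higher and 3 lower in carcinoma cells (20.4% and 19.2% of all genes) and 0 in macrophages, and summing carcinoma libraries 1 and 3 gave 0 without and 1 higher with the replicate block. With those libraries summed and the block kept, 691 of 14404 genes were higher and 244 lower. Macrophages against carcinoma cells gave 25 to 30 higher and 0 lower under every alternative run, and leaving out each library gave 26 to 27. The 25 came with the libraries of each number summed, where 7072 of 16843 genes were higher and 6204 lower. The 30 came without the 4 libraries numbered 2, where 7377 of 16187 genes were higher and 6566 lower. Neither Psmb8 in carcinoma cells nor any of the 6 macrophage genes changed direction. Over all genes, 78 were higher and 32 lower in carcinoma cells without the block, against 708 and 455 in DESeq2, 1450 and 999 with the block, 391 and 230 without reporter-positive library 2 and 0 and 0 without reporter-negative library 1, and dropping the count filter gave 292 higher and 331 lower in macrophages, against 0. What depth limits was not tested.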
